A study of Mus musculus with 6 samples.

Results

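The 10 genes followed here belong to the MLL fusion machinery of mouse MLL-AF9 leukemia cells and were chosen by name: Kmt2a, Men1, Psip1, Dot1l, Mllt1, Mllt3, Mllt10, Aff1, Aff4 and Cdk9. A gene was counted as measured where a row of the array was paired with its symbol alone, and 9 of the 10 met this rule, among 30743 named genes in all. The exception was Cdk9, whose row was also paired with the microRNA genes Mir2861 and Mir3960. In the RefSeq annotation of mouse assembly GRCm38.p6 these lie 23 and 116 bases from Cdk9, and the signal of that row is not reported. Each of the 9 measured genes had 1 probe set, the group of probes that gives 1 value per array.

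The comparison set 3 Ppara-/- samples against 3 Ppara+/+ samples. The Ppara-/- leukemias had been started in cells of mice that lack Ppara, the gene of a fatty acid-sensing nuclear receptor, and the Ppara+/+ leukemias in cells with the intact gene. Both carried the same MSCV retrovirus, which expresses the MLL-AF9 fusion together with green fluorescent protein, and both were sorted on that protein from the bone marrow of secondary recipients and measured as total RNA on Affymetrix arrays. The colony came from purchased mice that had been backcrossed for 10 generations; the labels name neither the strain nor the age of the animals nor the genotype of the recipients, and do not say whether replicates were separate primary leukemias or separate recipients. The p-values set the genotype difference against the spread between samples of the same genotype, which may therefore be technical. The number of arrays limits the precision.

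MLL, encoded by Kmt2a, is a histone methyltransferase that keeps HOX genes active. In the fusion its amino-terminal part, which binds menin and LEDGF, is joined to the carboxy-terminal part of AF9, a protein that recruits the super elongation complex and the H3K79 methyltransferase DOT1L. The super elongation complex releases paused RNA polymerase II through the kinase CDK9, and leukemia cells with MLL fusions are known to depend on menin, LEDGF, DOT1L and ENL. The comparison asks whether RNA of these genes differs in leukemia that lacks PPARA.

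The deposited values were taken as log2 signals, and they ran from 2.16 to 14.15 over the named genes. The median over genes was 5.16 to 5.40 on the 6 arrays. The median of the negative controls was 4.63 to 4.81 on 4 arrays, 4.99 on Ppara-/- replicate 2 and 5.16 on Ppara+/+ replicate 1, and their 95th percentile was 7.91 to 8.23. Of the myeloid genes that mark these leukemia cells, Mpo, Elane, Itgam and Cd33 among them, 10 of 11 measured had a mean signal above 7.91. The same held for 0 of 9 T and NK cell genes, 0 of 7 B cell genes, 0 of 5 erythroid genes and 1 of 8 genes of stroma and endothelium, the 1 being Pecam1. In that last list Pdgfrb had log2 signals of 5.79, 5.44 and 5.90 in the Ppara-/- samples, against 6.95, 6.53 and 6.73 in the Ppara+/+ samples, without overlap (difference -1.03; limma adjusted p = 0.0719 by the test described below). Of the 7 B cell genes 1, Cd79b, lay below without overlap in the Ppara-/- samples, against 3.62% of all genes. It had 7.68, 7.49 and 7.32 there, against 7.95, 7.72 and 8.01 in the Ppara+/+ samples (difference -0.40, limma adjusted p = 0.618). Its mean signal was at the 83.3rd percentile of all genes. Of the 11 myeloid genes 0 passed that test, and 2 lay above and 2 below without overlap, against 5.11% and 3.62% of all genes. Kit (difference 0.54) and Csf3r (0.37) lay above in the Ppara-/- samples, and Cd34 (-0.87) and Lyz2 (-0.21) below. Of 10 neutrophil markers 8 had a mean signal above 7.91, and 0 passed that test. Retnlg had 6.82, 6.22 and 5.78 in the Ppara-/- samples, against 4.66, 5.27 and 5.06 in the Ppara+/+ samples (difference 1.28; limma adjusted p = 0.192), and Mmp8 had 8.50, 7.74 and 8.20 in the Ppara-/- samples, against 8.78, 8.84 and 8.78 in the Ppara+/+ samples (difference -0.65; limma adjusted p = 0.413). These were the 2 neutrophil markers whose genotypes did not overlap, 1 in each direction. Of 12 monocyte and macrophage markers 11 had a negative difference in the Ppara-/- samples, where 57.0% of all genes had a positive one. By that test 2 fell, Clec4a1 and Vcam1, against 0.0585% of all genes. The marker lists were chosen with earlier results of these data known, so these shares are no test of a cell type. Of these 12 markers 8 lay below without overlap in the Ppara-/- samples, against 3.62% of all genes. A mean signal above 7.91 was found for 6 of the 12. Clec4a1 and Vcam1 were above the negative-control 95th percentile on 0 of 6 arrays. Ccr2 (difference 0.37), Ly6c2 (-0.13), C1qa (-0.11) and C1qb (-0.28) overlapped between the genotypes. The mean over all 12 markers was 7.36 to 7.68 in the Ppara-/- samples, against 8.22 to 8.45 in the Ppara+/+ samples. In sorted bulk cells, fewer cells of a type and less RNA per cell cannot be told apart.

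Most of the 9 genes gave signals in the upper part of the array. Their mean signals lay between the 47.9th and the 95.8th percentile of the 30743 genes, with a median at the 86.6th. Aff1, at the 95.8th percentile, and Kmt2a, at the 93.7th, were the brightest, and both were above the 95th percentile of the negative controls on all 6 arrays, as was Dot1l (89.3rd percentile). Mllt10 (87.1st), Aff4 (86.6th) and Mllt1 (86.5th) followed so close to each other that their order is not resolved, and they were above that limit on 3, 1 and 2 of the 6 arrays. Men1 (83.6th) and Psip1 (75.7th) lay below the negative-control 95th percentile on every array. Mllt3, which encodes AF9 itself, was the dimmest at the 47.9th percentile. Its signal was above the negative-control median on 5 of 6 arrays and above the 95th percentile on 0. These are ranks of signals and not of RNA levels, since probe sets differ in brightness. Whether the probes of Kmt2a and Mllt3 match any part of the retroviral fusion transcript is not known from the files, so their signals are not assigned to the endogenous genes alone.

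**Figure D1:**
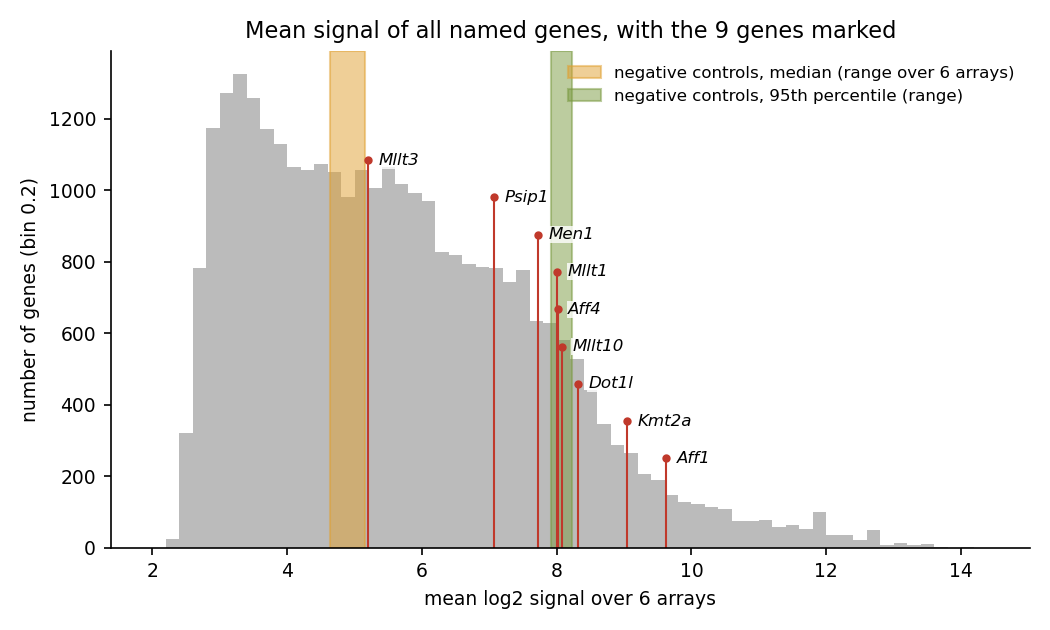
Number of named genes (vertical axis) by mean log2 signal over 6 arrays (horizontal axis), with the 9 genes marked by red lines whose heights have no meaning. The bands give the range over arrays of the negative-control median (4.63 to 5.16) and 95th percentile (7.91 to 8.23); Mllt3 stands beside the first band, and Kmt2a and Aff1 stand to the right of the second.

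None of the 9 genes passed the test between the genotypes: 0 rose and 0 fell in Ppara-/- leukemia. The test was limma's moderated test on the log2 signals, fitted to all 30743 genes, with an adjusted p (Benjamini-Hochberg, over all genes) under 0.05 taken as the threshold, which 0.117% of all genes passed. At an unadjusted p under 0.05 stood 1 of the 9 genes, Kmt2a, against 5.74% of all genes. Differences are given as Ppara-/- minus Ppara+/+. Of the 9 genes 7 had a positive and 2 a negative difference, with a median of 0.11, while 57.0% of all genes had a positive difference and the median over all genes was 0.02. The 3 values of each genotype did not overlap in 1 of the 9 genes, again Kmt2a and with Ppara-/- above; this was so in 8.74% of all genes, in 5.11% with Ppara-/- above and in 3.62% with Ppara-/- below. The smallest exact permutation p that 3 samples against 3 can give is 0.1.

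**Figure D2:**
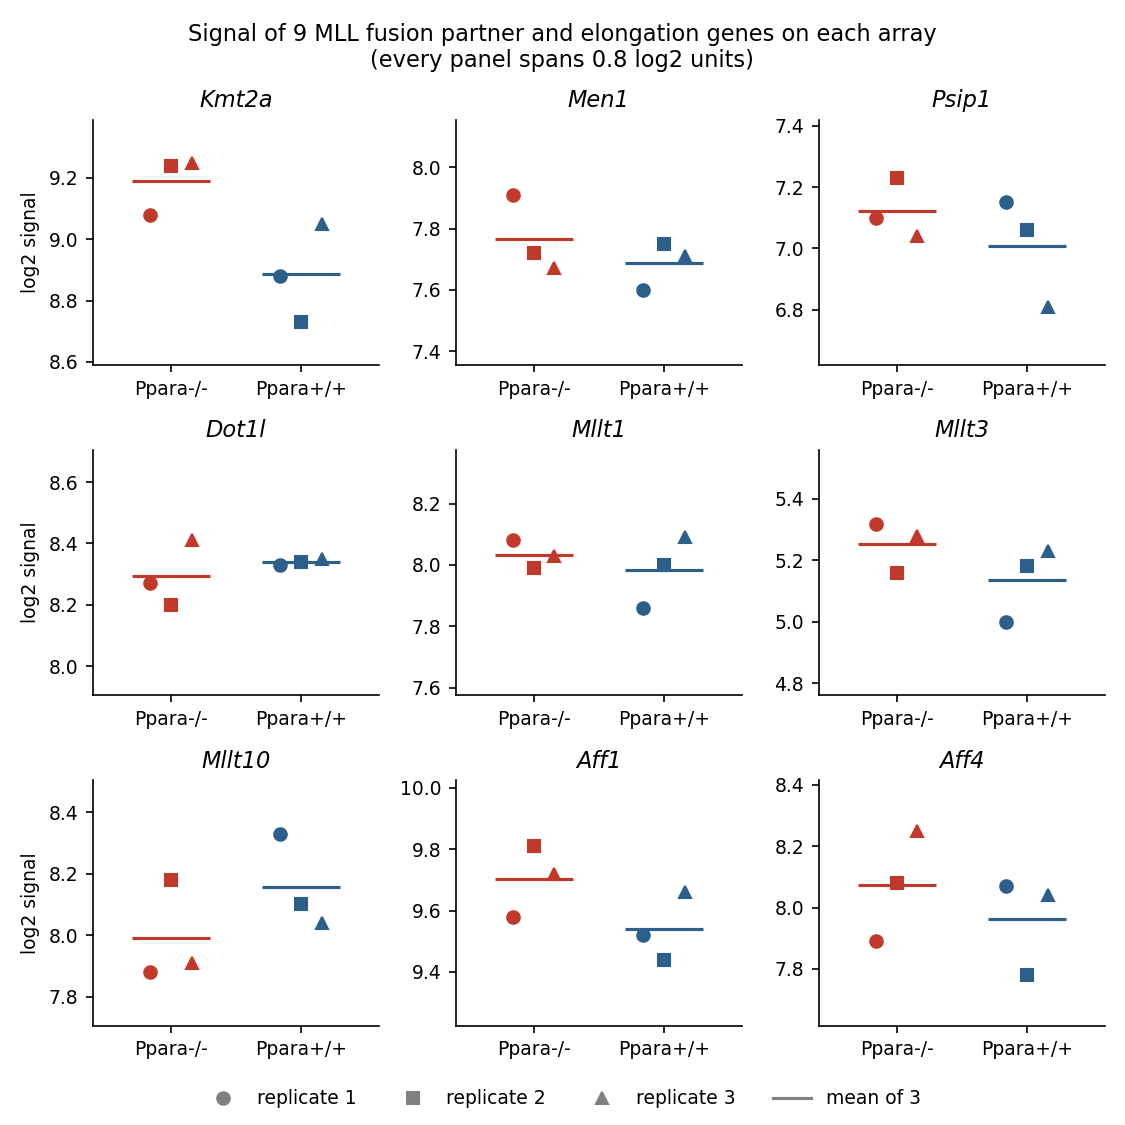
Log2 signal (vertical axis) of each of the 9 genes on every array, Ppara-/- at the left and Ppara+/+ at the right of each panel, with the replicate shown by the symbol and the mean of 3 by a line. All panels span the same range, 0.8 log2 units; only in the Kmt2a panel do the 3 Ppara-/- values (9.08 to 9.25) all lie above the 3 Ppara+/+ values (8.73 to 9.05).

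The first group is MLL and the proteins that hold it on chromatin. Kmt2a had log2 signals of 9.08, 9.24 and 9.25 in the Ppara-/- samples, against 8.88, 8.73 and 9.05 in the Ppara+/+ samples. The groups did not overlap, but the nearest values, Ppara-/- replicate 1 and Ppara+/+ replicate 3, were almost level. The Ppara-/- mean was 9.19 ± 0.10 and the Ppara+/+ mean 8.89 ± 0.16 (SD, n = 3 each), a log2 difference of 0.30 (SE 0.12, 95% interval 0.04 to 0.57) or a signal ratio of 1.23. This did not pass over all genes (limma, adjusted p = 0.784; unadjusted p = 0.03, rank 1176 of 30743 genes; two-sided exact permutation p = 0.1). With 1 array left out, the Kmt2a difference was 0.22 without Ppara+/+ replicate 2 and 0.38 without Ppara+/+ replicate 3, and the other 4 values lay between these.

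Men1 encodes menin, the adaptor that ties MLL to LEDGF. Its log2 signals were 7.91, 7.72 and 7.67 in the Ppara-/- samples, against 7.60, 7.75 and 7.71 in the Ppara+/+ samples. The highest and the lowest of the 6 values came from Ppara-/- replicate 1 and Ppara+/+ replicate 1, and the groups overlapped. The log2 difference was 0.08 (SE 0.11, 95% interval -0.17 to 0.33; limma adjusted p = 0.997), and it was 0.01 without Ppara-/- replicate 1 and 0.13 without Ppara-/- replicate 3. Psip1 encodes LEDGF, a reader of H3K36 methylation in gene bodies, and had log2 signals of 7.10, 7.23 and 7.04 in the Ppara-/- samples, against 7.15, 7.06 and 6.81 in the Ppara+/+ samples. Ppara+/+ replicate 3 was the low sample, and the other 5 values lay between 7.04 and 7.23. The log2 difference of Psip1 was 0.12 (SE 0.12, 95% interval -0.16 to 0.39; limma adjusted p = 0.997), and without Ppara+/+ replicate 3 it was 0.02.

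The second group writes H3K79 methylation over genes bound by the fusion. Dot1l, the H3K79 methyltransferase, had log2 signals of 8.27, 8.20 and 8.41 in the Ppara-/- samples, against 8.33, 8.34 and 8.35 in the Ppara+/+ samples. The Ppara+/+ values fell inside the range of the Ppara-/- values. Dot1l varied least of the 9 genes, with a pooled within-genotype SD of 0.08, and its log2 difference was -0.05 (SE 0.10, 95% interval -0.27 to 0.18; limma adjusted p = 0.997). Centring the arrays on the negative controls instead gave 0.08. Mllt10 encodes AF10, the DOT1L cofactor and itself a fusion partner of MLL. It had log2 signals of 7.88, 8.18 and 7.91 in the Ppara-/- samples, against 8.33, 8.10 and 8.04 in the Ppara+/+ samples. The lower 2 Ppara-/- values lay below all Ppara+/+ values, and the third, from replicate 2, lay among them. The Ppara-/- mean of Mllt10 was 7.99 ± 0.17 and its Ppara+/+ mean 8.16 ± 0.15 (SD, n = 3 each), which gave the most negative of the 9 differences, -0.17 (SE 0.13, 95% interval -0.46 to 0.12; limma adjusted p = 0.997). Without Ppara-/- replicate 2 the Mllt10 difference was -0.26 and without Ppara+/+ replicate 1 it was -0.08.

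The third group holds the YEATS-domain readers of histone acylation, ENL and AF9, which are paralogues and occupy the same place in elongation complexes. Mllt1, the gene of ENL, had log2 signals of 8.08, 7.99 and 8.03 in the Ppara-/- samples, against 7.86, 8.00 and 8.09 in the Ppara+/+ samples. All 6 values lay within 0.23, and the Ppara-/- values fell inside the Ppara+/+ range. The difference of Mllt1 was 0.05 (SE 0.10, 95% interval -0.18 to 0.28; limma adjusted p = 0.997), and it was -0.01 without Ppara+/+ replicate 1. Mllt3, the gene of AF9, had log2 signals of 5.32, 5.16 and 5.28 in the Ppara-/- samples, against 5.0, 5.18 and 5.23 in the Ppara+/+ samples. The groups overlapped through Ppara-/- replicate 2. The difference of Mllt3 was 0.12 (SE 0.11, 95% interval -0.13 to 0.36; limma adjusted p = 0.997), at a signal near the negative-control median, where a change in RNA can be understated. Without Ppara+/+ replicate 1, the low sample, the Mllt3 difference was 0.05.

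The fourth group is the AFF scaffolds on which the super elongation complex assembles. Aff1, the gene of AF4 and a frequent MLL fusion partner in lymphoid leukemia, had log2 signals of 9.58, 9.81 and 9.72 in the Ppara-/- samples, against 9.52, 9.44 and 9.66 in the Ppara+/+ samples. The 2 highest values were Ppara-/- and the 2 lowest Ppara+/+, and the groups overlapped between them. The Ppara-/- mean was 9.70 ± 0.12 and the Ppara+/+ mean 9.54 ± 0.11 (SD, n = 3 each), with a log2 difference of 0.16 (SE 0.11, 95% interval -0.09 to 0.42; limma adjusted p = 0.997; two-sided exact permutation p = 0.2). Aff4, the other scaffold, had log2 signals of 7.89, 8.08 and 8.25 in the Ppara-/- samples, against 8.07, 7.78 and 8.04 in the Ppara+/+ samples. The genotypes were interleaved, and Aff4 had the largest pooled SD of the 9 genes, 0.17. Its log2 difference was 0.11 (SE 0.13, 95% interval -0.19 to 0.41; limma adjusted p = 0.997), and it was 0.02 both without Ppara-/- replicate 3 and without Ppara+/+ replicate 2, and 0.20 without Ppara-/- replicate 1.

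**Figure D3:**
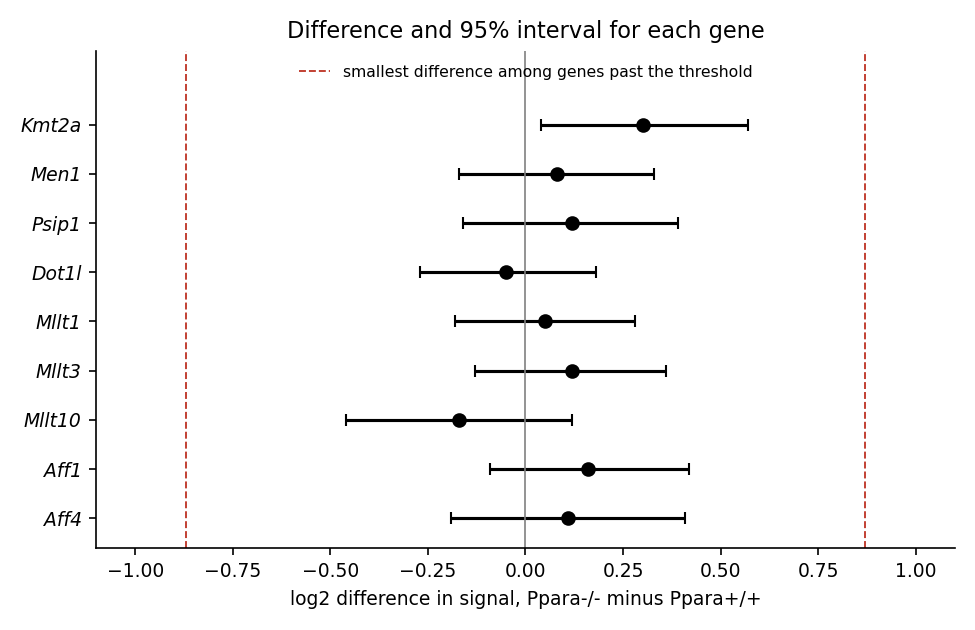
Log2 difference, Ppara-/- minus Ppara+/+ (horizontal axis), of the 9 genes, with points for limma's estimate from 3 arrays per genotype and bars for its 95% interval without adjustment for the number of genes. The Kmt2a interval (0.04 to 0.57) lies to the right of 0 and the other intervals cross it; the dashed lines mark 0.87, the smallest absolute difference among genes past the threshold.

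The intervals show how large a change in signal these data leave room for. The lowest and highest bounds of the 9 intervals, each for its gene alone, were -0.46 and 0.57, or signal ratios of 0.729 for Mllt10 and 1.48 for Kmt2a. The 36 genes past the threshold had absolute log2 differences of 0.87 to 2.91. The pooled SD of the 9 genes had a median of 0.11, against 0.15 over all genes, and in 2 of 9, Mllt10 and Aff4, it was above that of the median gene. Missing the threshold does not show that a gene is equal in the 2 genotypes. Over 17 other fits the 9 genes gave 147 differences, and 0 passed the threshold; their adjusted p ran from 0.454 (limma, Kmt2a with the negative-control level as a covariate) to 1.

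**Figure D4:**
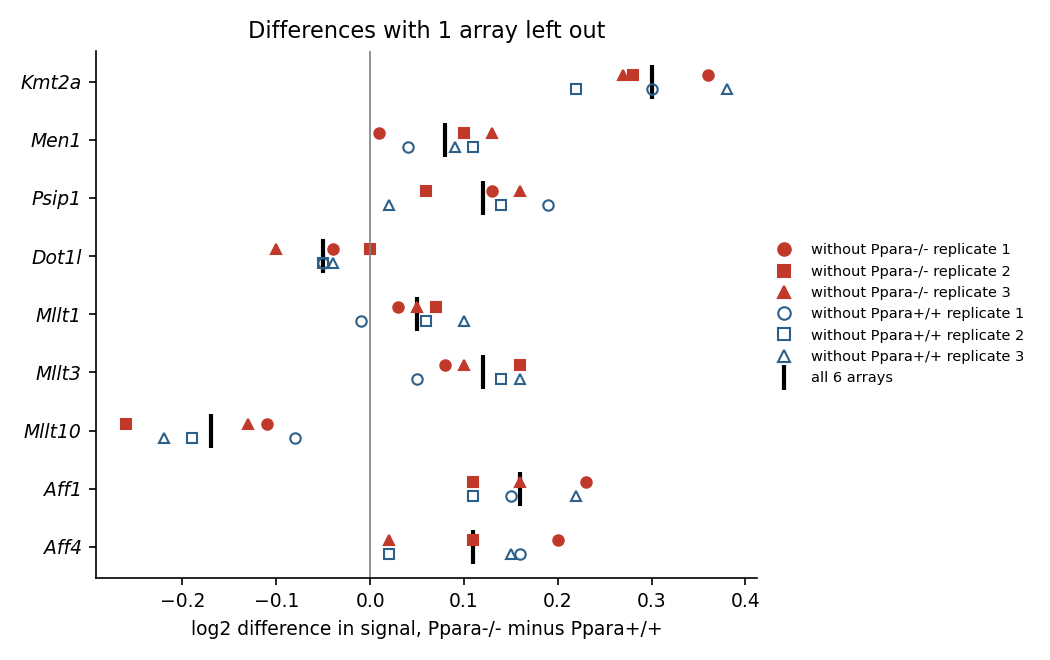
Log2 difference, Ppara-/- minus Ppara+/+ (horizontal axis), of the 9 genes with each array left out in turn (filled red symbols, a Ppara-/- array; open blue symbols, a Ppara+/+ array) and with all 6 arrays (black bar). Kmt2a stays between 0.22 and 0.38, Mllt10 between -0.26 and -0.08, and Mllt1 and Dot1l lie about 0.

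Other genes of the MLL and elongation machinery were read from 6 further lists with 72 measured genes. Of these 0 passed the test (limma), 8 had an unadjusted p under 0.05 (11.1%, against 5.74% of all genes) and 10 had genotypes that did not overlap (13.9%, against 8.74%). The other subunits of the super elongation complex had a median difference of 0.05 over 9 genes, with 6 positive and 3 negative. A list of 7SK control factors and of Cdk7, Cdk13, Ccnk, Ccnh and Mnat1 had a median of 0.03 over 9 genes. The median was -0.02 over 13 genes of the PAF1 complex, DSIF and NELF. It was -0.03 over 15 genes of the MLL core complex and other H3K4 methyltransferases. Other MLL fusion partners had a median of -0.13 over 16 genes and partners in H3K79 methylation and acetyl reading one of 0.03 over 10.

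The 2 other members of the AFF family lay apart from Aff1 and Aff4. Aff2, a further elongation scaffold, had log2 signals of 6.84, 7.38 and 7.01 in the Ppara-/- samples, against 8.12, 7.74 and 7.71 in the Ppara+/+ samples. The groups of Aff2 did not overlap, and its difference of -0.78 (SE 0.17) did not pass (limma adjusted p = 0.219, with 0.0249 to 0.962 over the alternatives; it passed in 1 of 16, with array weights). Aff3, a fusion partner known from lymphoid cells, had log2 signals of 7.43, 6.29 and 7.68 in the Ppara-/- samples, against 5.55, 6.44 and 6.31 in the Ppara+/+ samples. Ppara-/- replicate 2 stood with the Ppara+/+ samples, and the Aff3 difference of 1.03 (SE 0.36) did not pass (limma adjusted p = 0.685). The elongation factor Ell2 had a difference of 0.19 (limma adjusted p = 0.997), which was 0.11 without Ppara-/- replicate 2 and 0.29 without Ppara-/- replicate 3.

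Among the methyltransferases related to Kmt2a, Kmt2d had log2 signals of 10.17, 10.16 and 10.38 in the Ppara-/- samples, against 9.92, 9.93 and 10.07 in the Ppara+/+ samples. Kmt2b, the closest relative of MLL, had 8.24, 8.12 and 8.37 in the Ppara-/- samples, against 7.91, 8.00 and 8.10 in the Ppara+/+ samples. In both, the Ppara-/- values all lay above the Ppara+/+ values; the differences were 0.26 for Kmt2d (SE 0.11; limma adjusted p = 0.832) and 0.24 for Kmt2b (SE 0.11; limma adjusted p = 0.904), and neither passed. They were 2 of the 15 genes of their list with this separation, which 5.11% of all genes showed. Paxip1, which serves the KMT2C and KMT2D complexes, had a difference of -0.16 (limma adjusted p = 0.997).

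Of the genes that set the pace of elongation, Hexim1, an inhibitor of CDK9, had a difference of 0.27 and Mepce, the cap enzyme of 7SK RNA, one of 0.16, while the CDK12 partner Ccnk had -0.21. Polr2a, the large subunit of RNA polymerase II, had a difference of -0.24 (SE 0.12), the NELF subunit Nelfa -0.13 and the PAF1 complex subunit Leo1 -0.14. None of these 6 passed (limma adjusted p of 0.983 for Polr2a and 0.997 for the others). With 1 array left out, Hexim1 was at 0.12 and Polr2a at -0.15 without Ppara-/- replicate 3, and without Ppara+/+ replicate 1 Ccnk was at -0.07, Leo1 at -0.06 and Mepce at 0.10. Nelfa had log2 signals of 8.29, 8.18 and 8.26 in the Ppara-/- samples, against 8.36, 8.31 and 8.44 in the Ppara+/+ samples, without overlap.

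Gas7, a membrane-binding protein and rare fusion partner, had log2 signals of 6.98, 6.83 and 7.03 in the Ppara-/- samples, against 7.96, 7.51 and 7.81 in the Ppara+/+ samples. The groups did not overlap, and the difference of -0.81 (SE 0.13) missed the threshold (limma adjusted p = 0.0979, with 0.0149 to 0.962 over the alternatives; it passed in 1 of 16, with array weights). The cytoskeletal gene Septin9 differed by -0.28 (SE 0.11; limma adjusted p = 0.754) and the DNA demethylase Tet1 by 0.35 (SE 0.14; limma adjusted p = 0.797), both without overlap. Without Ppara+/+ replicate 1 the Tet1 difference was 0.21. The Tet1 signal was above the negative-control median on 5 of 6 arrays and above the 95th percentile on 0. In the list of H3K79 and acetyl-reading partners the genes with the smallest p were Yeats2 (0.20), the AF9-binding Polycomb protein Cbx8 (0.11) and the deacetylase Sirt1 (-0.09), and none passed (limma adjusted p = 0.997 for each). With 1 array left out Yeats2 was at 0.11 to 0.31 and Sirt1 at -0.21 to 0.00.

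**Figure D5:**
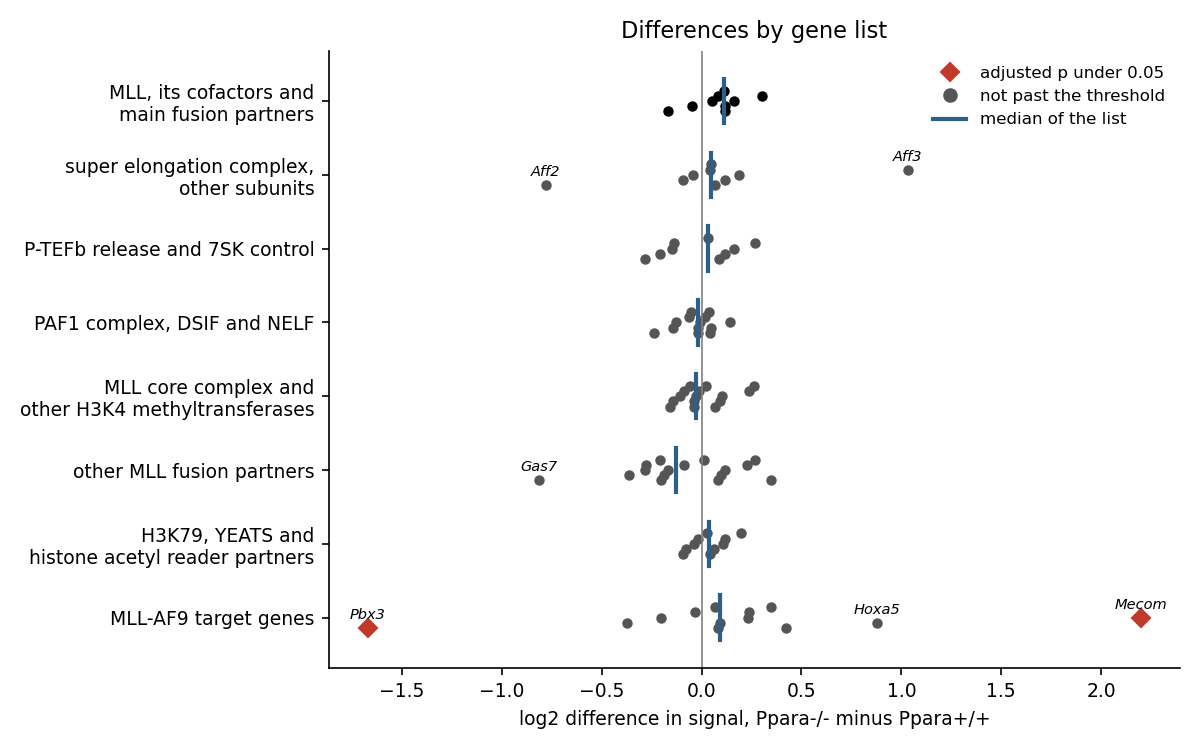
Log2 difference, Ppara-/- minus Ppara+/+ (horizontal axis), of every measured gene of 8 lists, with the 9 genes in the top row, 1 point per gene, blue bars for list medians and red diamonds for genes past the threshold. The 9 genes lie between -0.17 and 0.30; the 2 genes past the threshold, Pbx3 and Mecom, are among the targets of the fusion.

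Genes that MLL-AF9 is known to activate were set beside the machinery. Of 13 measured targets 1 rose and 1 fell, against 0.0585% of all genes in each direction, and the median difference was 0.09. The list was chosen with earlier results of these data known, so these shares are no test of the targets as a group. Mecom, a stem cell transcription factor, had log2 signals of 7.31, 7.56 and 7.59 in the Ppara-/- samples, against 4.89, 5.17 and 5.80 in the Ppara+/+ samples (difference 2.20, SE 0.21; limma adjusted p = 0.0145). Pbx3, a partner of HOXA9, had 6.19, 6.33 and 6.32 in the Ppara-/- samples, against 7.74, 7.99 and 8.12 in the Ppara+/+ samples (difference -1.67, SE 0.12; limma adjusted p = 0.00438). Both genes were dim, above the negative-control 95th percentile on 0 of 6 arrays. Mecom was above the negative-control median on 5 of 6 arrays and Pbx3 on all 6. Mecom missed the threshold without Ppara-/- replicate 1, 2 or 3 (limma adjusted p = 0.0931, 0.0522 and 0.0508, with 0.000581 to 0.171 over all alternatives), and Pbx3 passed with any 1 array left out (0.000178 to 0.0635 over all alternatives). Hoxa5 had 9.25, 9.50 and 9.27 in the Ppara-/- samples, against 9.07, 8.10 and 8.21 in the Ppara+/+ samples; its difference of 0.88 (SE 0.24) did not pass (limma adjusted p = 0.397), and without Ppara+/+ replicate 1, the high Ppara+/+ sample, it was 1.18 and passed (limma adjusted p = 0.023, with 0.0119 to 0.94 over the alternatives). Most of the monocyte and macrophage markers given above were lower in the same Ppara-/- samples, and their part in these differences was not tested.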

How the data were processed

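RNA of 6 sorted leukemia samples, 3 per genotype by their titles, was measured on arrays. The authors deposited a log2 signal for every probe set on every array; RMA and limma are named in the submitters' processing notes, without version or order, and the log base was inferred from the values. RMA makes the distributions of arrays nearly equal, so a shift of most genes would be hidden. The genome build is not given in the sources used here.

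Of 72688 rows, 6732 were controls, 5222 of them negative controls. A platform table paired 31216 rows with 1 gene, after older symbols were updated through RefSeq's gene table (GRCm38.p6, used for names and neighbours), and 1534 with several. Each of 30743 genes was represented by its probe set with the highest mean, without a filter on dim genes. The fit of genotype used lmFit and eBayes of limma 3.58.1 under R 4.3.3, without covariates and with Benjamini-Hochberg adjustment over all genes; adjusted p-values come from that fit unless another is named. Intervals use the moderated SE. Single genes were also compared by an exact permutation test (scipy 1.17.1). Figures were drawn with matplotlib 3.10.9 in Python 3.11.15.

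The genes and lists were chosen with earlier results of these data known. Besides the 9 measured genes, the text names up to 3 genes per further list, taken by adjusted p under 0.05 and then by smallest p. Alternatives were other priors, normalizations and filters, the mean of probe sets, array weights, a replicate block, arrays left out and the negative-control level as a covariate. Some listed genes are not reported here, and Cdk12, Supt4a, Bcor, Ing4, Hoxa7, Hoxa9 and Zeb2 share a row with another symbol.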

Additional observations from a re-analysis of the deposited data

How the results depend on the processing

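The count of 0 members past the threshold held in all 17 other fits; 1 of 147 member differences changed sign through scaling (Dot1l, 0.08 with arrays centred on the negative controls) and 1 with an array left out (Mllt1, -0.01 without Ppara+/+ replicate 1, in a range of -0.01 to 0.10), and Sirt1 was at 0.03 with that centring. That centring subtracts the same value from every gene of an array, so it must move all differences by the same amount. It put the median of all genes at 0.14, against 0.02 as deposited, and the median of the 9 genes at 0.23. With 1 array left out that median was 0.05 to 0.11. The count over all genes, 36, was 69 with a trended and robust prior and 277 with array weights. It was 22 after repeated quantile normalization, 13 with median centring and 22 with centring on the negative controls. Among the 3895 genes above the negative-control 95th percentile it was 1. It was 0 without the 2 arrays with the highest negative controls, where 2947 genes had an unadjusted p under 0.05 (limma). The count was 6, 11 and 15 without Ppara-/- replicate 1, 2 and 3, and 13 without Ppara+/+ replicate 3. It was 36 without Ppara+/+ replicate 1 and 36 without Ppara+/+ replicate 2. Of these, 26 and 24 were among the 36 genes of the fit to all 6 arrays. Ranked among genes above the negative-control median, the median percentile of the 9 genes was 77.1, against 86.6, and Mllt3 was at the 10.7th; with 1 array left out the median percentile was 86.4 to 87.0. Whether replicate numbers pair the samples is not known. Deviations of same-numbered arrays from their genotype means correlated at -0.328, -0.469 and 0.107 across genes, and those of other pairs at -0.32 to 0.499. With 3 arrays per genotype these values cannot decide it. With the replicate block 12 genes passed and 0 of the 9. The filter at the 95th percentile kept Kmt2a, Dot1l and Aff1 of the 9 genes. Dim signals, Mllt3 above all, limit what could be seen.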

Other observations

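Ranked within each array, 2 of the 9 genes, Kmt2a and Mllt3, had genotypes that did not overlap, and this was so in 11.7% of all genes. Mllt3, whose signal was above the negative-control 95th percentile on 0 of 6 arrays and overlapped between genotypes, stood at the 49.0th, 48.6th and 48.7th percentile of all named genes in the Ppara-/- samples, against the 47.5th, 46.2nd and 47.6th in the Ppara+/+ samples. Kmt2a stood at the 94.0th, 94.3rd and 94.7th percentile in the Ppara-/- samples, against the 92.2nd, 92.5th and 94.0th in the Ppara+/+ samples, so that the nearest samples were level to the rounding. These ranks are a description and were not tested.

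The 9 genes did not share 1 high or low array. Ppara-/- replicate 3 held the highest value of 3 genes (Kmt2a, Dot1l and Aff4), Ppara-/- replicates 1 and 2 of 2 genes each, and Ppara+/+ replicates 1 and 3 of 1 gene each. The lowest value was on Ppara+/+ replicate 1 for Men1, Mllt1 and Mllt3 and on Ppara+/+ replicate 2 for Kmt2a, Aff1 and Aff4. Ppara+/+ replicate 1, with the highest negative controls, also held the highest Mllt10 value.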
